A study of Homo sapiens with 6 samples.

Results

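The aminoacyl-tRNA synthetase genes of KHM-5M cells were examined as a group of 37 genes, chosen by name as the enzymes that charge tRNAs in the cytosol (21 genes) or in mitochondria (16 genes). They were 37 of the 17687 genes of the expression table, and all 37 were among the 14005 genes with enough counts to be tested. KHM-5M is a cell line from an anaplastic thyroid cancer, and the study exposed it to sodium selenite (SS), a selenium salt, to follow early changes of the transcriptome. The 3 treatments were sequenced with 2 biological replicates each, all in the same line and medium: control cells given PBS, cells given SS, and cells given SS together with N-acetylcysteine (SS+NAC), an antioxidant and cysteine donor. The labels give neither a dose with its unit nor an exposure time, and the titles of the SS libraries carry the number 5 without a unit. Cells given NAC alone were not analysed here, so the parts of SS and of NAC in the SS+NAC libraries cannot be told apart. All values come from 1 cell line, and in RNA of whole cultures a smaller share of cells expressing a gene cannot be told apart from less mRNA per cell.

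Each synthetase joins 1 amino acid to its cognate tRNAs, and the charged tRNA is then carried to the ribosome by an elongation factor. Most amino acids have separate nuclear genes for the cytosolic and the mitochondrial enzyme, the latter named with a final 2. Several cytosolic enzymes sit together in the multisynthetase complex, and many cytosolic, but few mitochondrial, synthetase genes are known targets of ATF4, the transcription factor that cells make more of when amino acids run short or the endoplasmic reticulum is stressed. GARS and KARS each encode both forms of their enzyme, EPRS encodes a fused enzyme for glutamate and proline, and FARSA and FARSB encode the subunits of the cytosolic phenylalanine enzyme. TARSL2, a cytosolic relative of the threonine enzyme TARS, was counted as cytosolic despite its name.

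Library totals ran from 17645545 to 23810056 expected counts, and a count was recorded for 16114 to 16503 genes per library. The members were measured well, from 109 counts for PARS2 in its lowest library to 9016 counts for the highest member. Replicates of a group differed by more than counting error in every group, with a chi-square per degree of freedom of 3.05 in control, 7.12 in SS and 11.7 in SS+NAC. Of 6 thyroid markers, PAX8 (104 to 134 TPM) and HHEX (25.9 to 29.8 TPM) were present, FOXE1 stood at 0.55 to 1.59 TPM, and TG, NKX2-1 and SLC5A5 were below 1 TPM in every library. Of the epithelial markers KRT8 and KRT18 stood at 731 to 1398 TPM, whereas EPCAM (3.85 to 6.07 TPM), KRT19 (0.96 to 2.19 TPM) and CDH1 (0.14 to 0.29 TPM) were low, the mesenchymal VIM stood at 5744 to 6621 TPM, and none of 6 immune and endothelial markers exceeded 2.14 TPM.

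The promoters of the members were searched for a motif of ATF4. RefSeq promoter windows (GRCh38.p14, 250 bases before to 50 bases after a start site) were found for 30 members and searched on both strands for TGATGNAA, the core of the composite element bound by ATF4. It occurred in 8 of 30 members (26.7%) and in 1217 of all 27305 genes with a window (4.46%; 3.62% of single windows). By class, 7 of 16 cytosolic members (43.8%) and 1 of 14 mitochondrial members (7.14%) held it. It was in 7 of the 10 known ATF4 targets with a window (70.0%) and in 0 of the 6 other cytosolic genes. The motif was chosen after values of these data had been seen, and a match is a string of letters, not an occupied site. The 8 stretches are shown because 7 of them belong to known ATF4 targets, the subgroup followed below, each as 30 bases read 5′ to 3′ on the strand of its gene, with the match in capitals. On 6 of them the motif lies on the opposite strand and appears as its reverse complement.
AARS: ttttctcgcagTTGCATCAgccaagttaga
CARS: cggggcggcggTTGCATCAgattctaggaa
GARS: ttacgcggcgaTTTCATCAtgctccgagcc
IARS: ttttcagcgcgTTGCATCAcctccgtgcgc
MARS: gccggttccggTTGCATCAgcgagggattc
NARS: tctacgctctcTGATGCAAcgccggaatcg
TARS: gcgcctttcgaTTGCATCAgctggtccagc
YARS2: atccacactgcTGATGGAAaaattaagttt
The stretches lie at chr16:70289675-70289704 (AARS, minus strand), chr11:3057407-3057436 (CARS, minus), chr7:30594834-30594863 (GARS, plus) and chr9:92293692-92293721 (IARS, minus). The others lie at chr12:57488053-57488082 (MARS, plus), chr18:57621804-57621833 (NARS, minus), chr5:33440956-33440985 (TARS, plus) and chr12:32756076-32756105 (YARS2, minus). In CARS, GARS, IARS, MARS, NARS and TARS the motif began between 33 bases before and 15 bases after a start site, and in AARS and YARS2 it began 187 and 197 bases before one.

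Cytosolic synthetases made up most of the family's mRNA. In TPM, the deposited scale divided by transcript length that allows genes to be compared, their summed level was 2970.5 and 2968.7 in control, 2741.9 and 2692.7 in SS, and 3148.1 and 3221.9 in SS+NAC. The summed level of the mitochondrial enzymes was 473.9 and 464.4 in control, 421.9 and 399.1 in SS, and 462.6 and 473.3 in SS+NAC. Both sums were lowest in the SS libraries, and the cytosolic sum was highest in the SS+NAC libraries, with no overlap between groups. On this scale the median over all tested genes also moved, by -0.26 (log2) in SS over control and 0.05 in SS+NAC over control. Over the members the medians were -0.15 and 0.05. Of all tested genes, 59.5% had both SS libraries below both control libraries, and 30.4% had both SS+NAC libraries above them. The cytosolic sum was 6.27 to 6.81 times the mitochondrial one across the 6 libraries.

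TARS, the threonine enzyme, had the highest mean level in control, 259.5 ± 8.49 TPM (SD, n = 2), followed by KARS (lysine) with 253.9 ± 1.2 TPM and YARS (tyrosine) with 245.9 ± 1.77 TPM. The spreads of TARS and KARS overlapped, so their order in control was not resolved. At the other end were PARS2, the mitochondrial proline enzyme, with 5.52 ± 0.0990 TPM, and TARSL2 with 6.09 ± 0.248 TPM. The highest mitochondrial member, CARS2 (cysteine), had 80.7 ± 1.2 TPM, close to the lower end of the cytosolic genes. DARS (aspartate), with 58.8 ± 2.30 TPM, was the only cytosolic member besides TARSL2 below CARS2 in control.

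**Figure D1:**
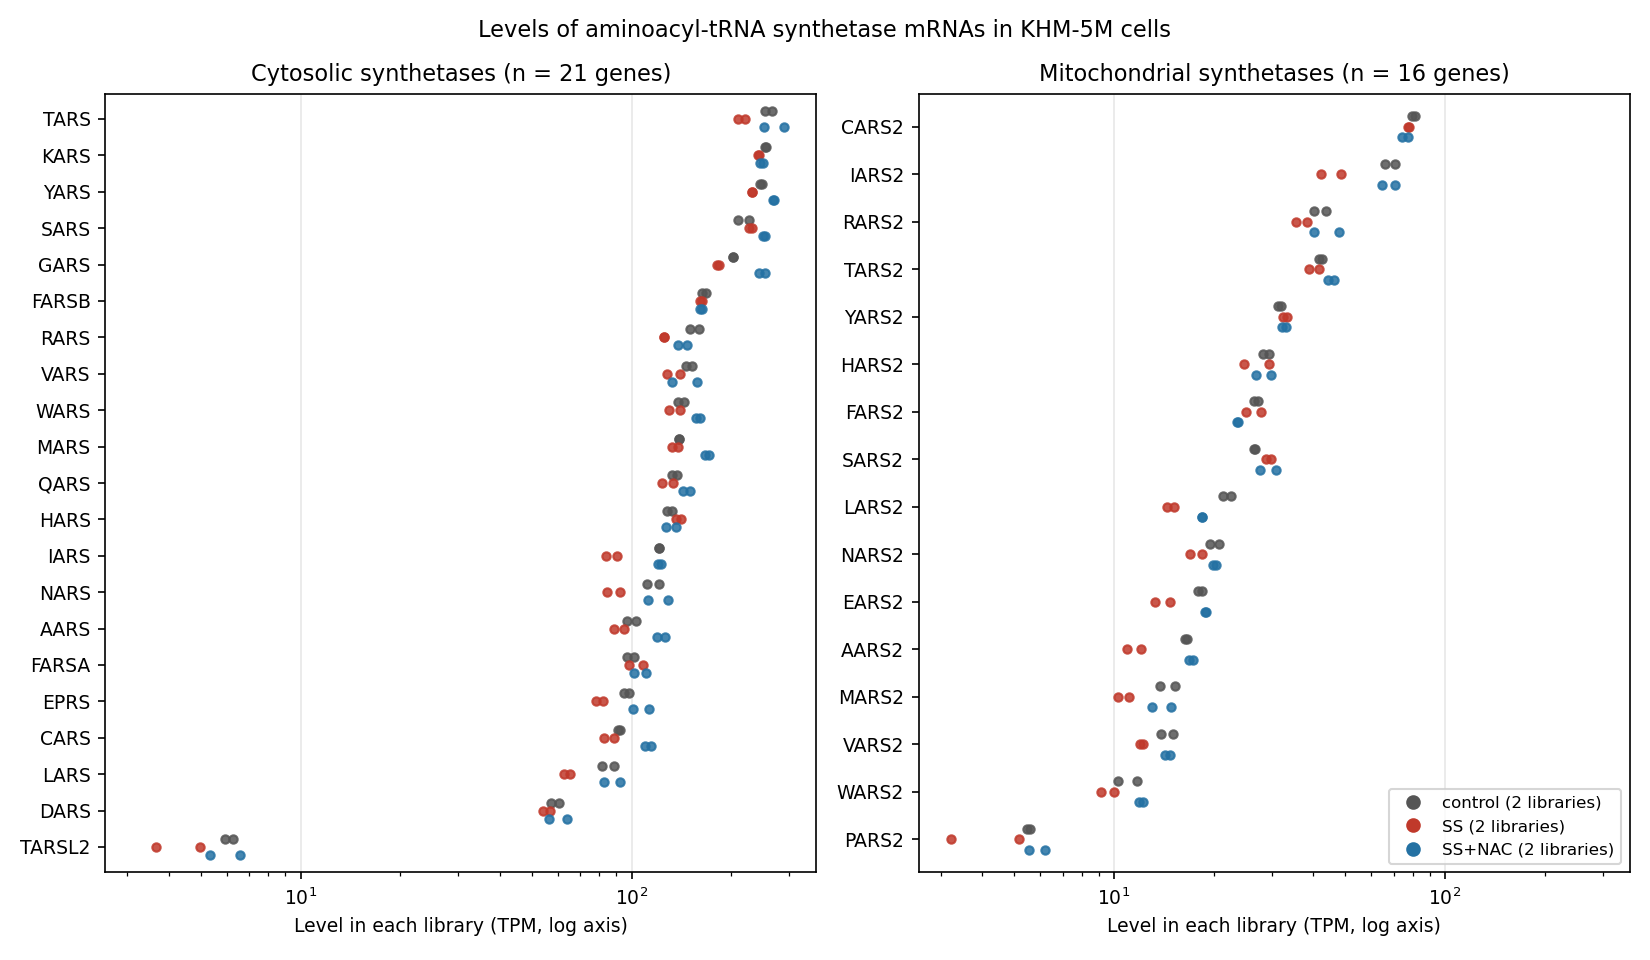
Level of each synthetase gene in each library, in TPM on a log axis, with cytosolic genes in the left panel and mitochondrial genes in the right one, sorted by their mean, and 1 point per library for control, SS and SS+NAC. Most cytosolic genes lie above most mitochondrial ones, with TARSL2 near 6 TPM as the exception, and for 26 of 37 genes both SS points lie below both control points, as they do for 59.5% of all tested genes on this scale.

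For every amino acid with both genes among the members, the cytosolic mRNA was the more abundant in each of the 6 libraries, by a margin that depended on the amino acid. The ratio of the TPM levels was smallest for cysteine (CARS over CARS2, 1.07 to 1.54), and IARS exceeded IARS2 by 1.71 to 1.98 times. At the wide end, WARS (tryptophan) exceeded WARS2 by 11.8 to 14.2 times, and EPRS exceeded PARS2 by 15.8 to 24.3 times. The CARS over CARS2 ratio was 1.13 and 1.14 in control, 1.14 and 1.07 in SS, and 1.41 and 1.54 in SS+NAC, so both SS+NAC libraries lay above the other 4. The MARS over MARS2 ratio (methionine) was 10.1 and 9.15 in control, 12.5 and 13.0 in SS, and 11.2 and 13.2 in SS+NAC. Other ratios were lower in both SS libraries than in both control libraries, among them NARS over NARS2 (asparagine), with 5.81 and 5.72 in control against 5.01 and 4.97 in SS. These ratios are not corrected for the trend of SS changes with transcript length described below. MARS (2755 bases) is shorter than MARS2 (3111), and NARS (2779) is longer than NARS2 (2368). With each library's trend entered as an offset, the log2 fold changes in SS over control were 0.21 for MARS and -0.13 for MARS2. They were -0.15 for NARS and -0.07 for NARS2.

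After SS, 8 members rose and 5 fell against control, at an adjusted p of at most 0.05 in edgeR's quasi-likelihood test. This is 13 of 37 members, where 18.6% of all tested genes rose and 21.4% fell. Of the 21 cytosolic genes 6 rose and 2 fell, and of the 16 mitochondrial genes 2 rose and 3 fell. The changes were small, between -0.31 and 0.43 on the log2 scale, with a median of 0.13 over the members (0.17 for the cytosolic and 0.05 for the mitochondrial genes) beside 0.00 over all tested genes. The difference between the class medians, 0.115, is a description without a test, and without single libraries it ranged from 0.04 (without SS replicate 2) to 0.18 (without control replicate 2).

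Among the cytosolic members, HARS, the histidine enzyme, had the largest log2 fold change, by less than its standard error over SARS and FARSA. Levels are given in TMM-scaled CPM (counts relative to the library's total). HARS had 153.3 and 151.6 CPM in control, 184.3 and 207.1 in SS, and 157.7 and 138.0 in SS+NAC. Both SS libraries lay above the other 4, and HARS rose in SS against control by 0.36 ± 0.09 on the log2 scale (SE; adjusted p = 0.00869). SARS, the serine enzyme, which also charges the selenocysteine tRNA with serine, had 205.1 and 225.1 CPM in control, 264.1 and 282.8 in SS, and 244.1 and 231.8 in SS+NAC. Its groups did not overlap, SS being highest and control lowest, and it rose by 0.35 ± 0.08 (adjusted p = 0.00640).

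Both subunits of the cytosolic phenylalanine enzyme rose. FARSA had 90.3 and 96.8 CPM in control and 107.3 and 129.5 in SS (0.34 ± 0.11, adjusted p = 0.0255), and FARSB had 164.7 and 174.3 in control and 189.6 and 210.1 in SS (0.24 ± 0.08, adjusted p = 0.0348). In SS+NAC the values were 103.5 and 88.9 CPM for FARSA and 163.8 and 156.4 for FARSB. For both subunits the SS libraries were the highest of the 6 and SS replicate 2 the highest of all. QARS, the glutamine enzyme of the multisynthetase complex, had 166.5 and 175.0 CPM in control, 200.5 and 203.7 in SS, and 179.1 and 176.7 in SS+NAC, and rose by 0.24 ± 0.07 (adjusted p = 0.0195). MARS, the methionine enzyme of the complex, had 193.5 and 198.1 CPM in control, 224.3 and 234.7 in SS, and 232.2 and 223.4 in SS+NAC. It rose by 0.23 ± 0.07 in SS (adjusted p = 0.0270), and its SS and SS+NAC libraries overlapped.

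The cytosolic genes that fell, EPRS and IARS, both encode enzymes of the complex. EPRS had 216.3 and 216.5 CPM in control, 181.8 and 189.9 in SS, and 218.1 and 231.0 in SS+NAC, a log2 fold change of -0.22 ± 0.07 in SS over control (adjusted p = 0.0335). IARS, the isoleucine enzyme, had 281.2 and 288.4 CPM in control, 244.9 and 249.7 in SS, and 282.1 and 268.3 in SS+NAC, with -0.20 ± 0.07 in SS over control (adjusted p = 0.0439). Both had their lowest values in the SS libraries. LARS, the leucine enzyme of the complex and the counterpart of LARS2, had 214.4 and 202.0 CPM in control and 183.3 and 192.9 in SS, which did not pass the test (-0.15 ± 0.08, adjusted p = 0.146). Over the 8 enzymes of the complex, 2 rose and 2 fell, with a median of 0.08, near the shares of all tested genes, and 0 of the 8 passed with the length offset or with the replicate block.

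Among the mitochondrial members SARS2, the serine enzyme, rose most, from 27.6 and 28.0 CPM in control to 36.2 and 38.5 in SS, with 32.2 and 26.8 in SS+NAC (0.43 ± 0.10, adjusted p = 0.00628). Of the exonic bases of SARS2, 46.2% are shared with another gene annotated on the same strand, so its counts are uncertain. YARS2, the tyrosine enzyme and the 1 mitochondrial member of the 14 searched that held the TGATGNAA motif, had 34.5 and 36.2 CPM in control, 43.2 and 48.6 in SS, and 36.2 and 34.6 in SS+NAC (0.38 ± 0.08, adjusted p = 0.00575, the lowest among the members). For both genes the SS libraries were above the other 4. The cytosolic YARS had 297.5 and 302.1 CPM in control and 321.2 and 352.0 in SS, which did not pass the test (0.17 ± 0.08, adjusted p = 0.112).

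The mitochondrial genes that fell were IARS2, LARS2 and AARS2. IARS2 (isoleucine) had 126.9 and 121.0 CPM in control, 102.3 and 98.0 in SS, and 117.0 and 119.2 in SS+NAC (-0.31 ± 0.07, adjusted p = 0.00666). LARS2 (leucine) had 45.5 and 48.8 CPM in control, 37.6 and 39.5 in SS, and 39.6 and 37.1 in SS+NAC, so that the SS and SS+NAC libraries overlapped below control (-0.29 ± 0.08 in SS over control, adjusted p = 0.0142). AARS2 (alanine) had 39.1 and 40.3 CPM in control, 33.1 and 33.2 in SS, and 41.5 and 37.1 in SS+NAC (-0.26 ± 0.08, adjusted p = 0.0281). Its cytosolic counterpart AARS had 163.7 and 177.6 CPM in control and 186.8 and 191.3 in SS, a change of 0.15 ± 0.07 that did not pass (adjusted p = 0.137). MARS2, the counterpart of MARS, had 21.6 and 24.3 CPM in control and 20.2 and 20.6 in SS (-0.17 ± 0.11, adjusted p = 0.253). The remaining 24 members did not pass, with log2 fold changes between -0.19 and 0.26.

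**Figure D2:**
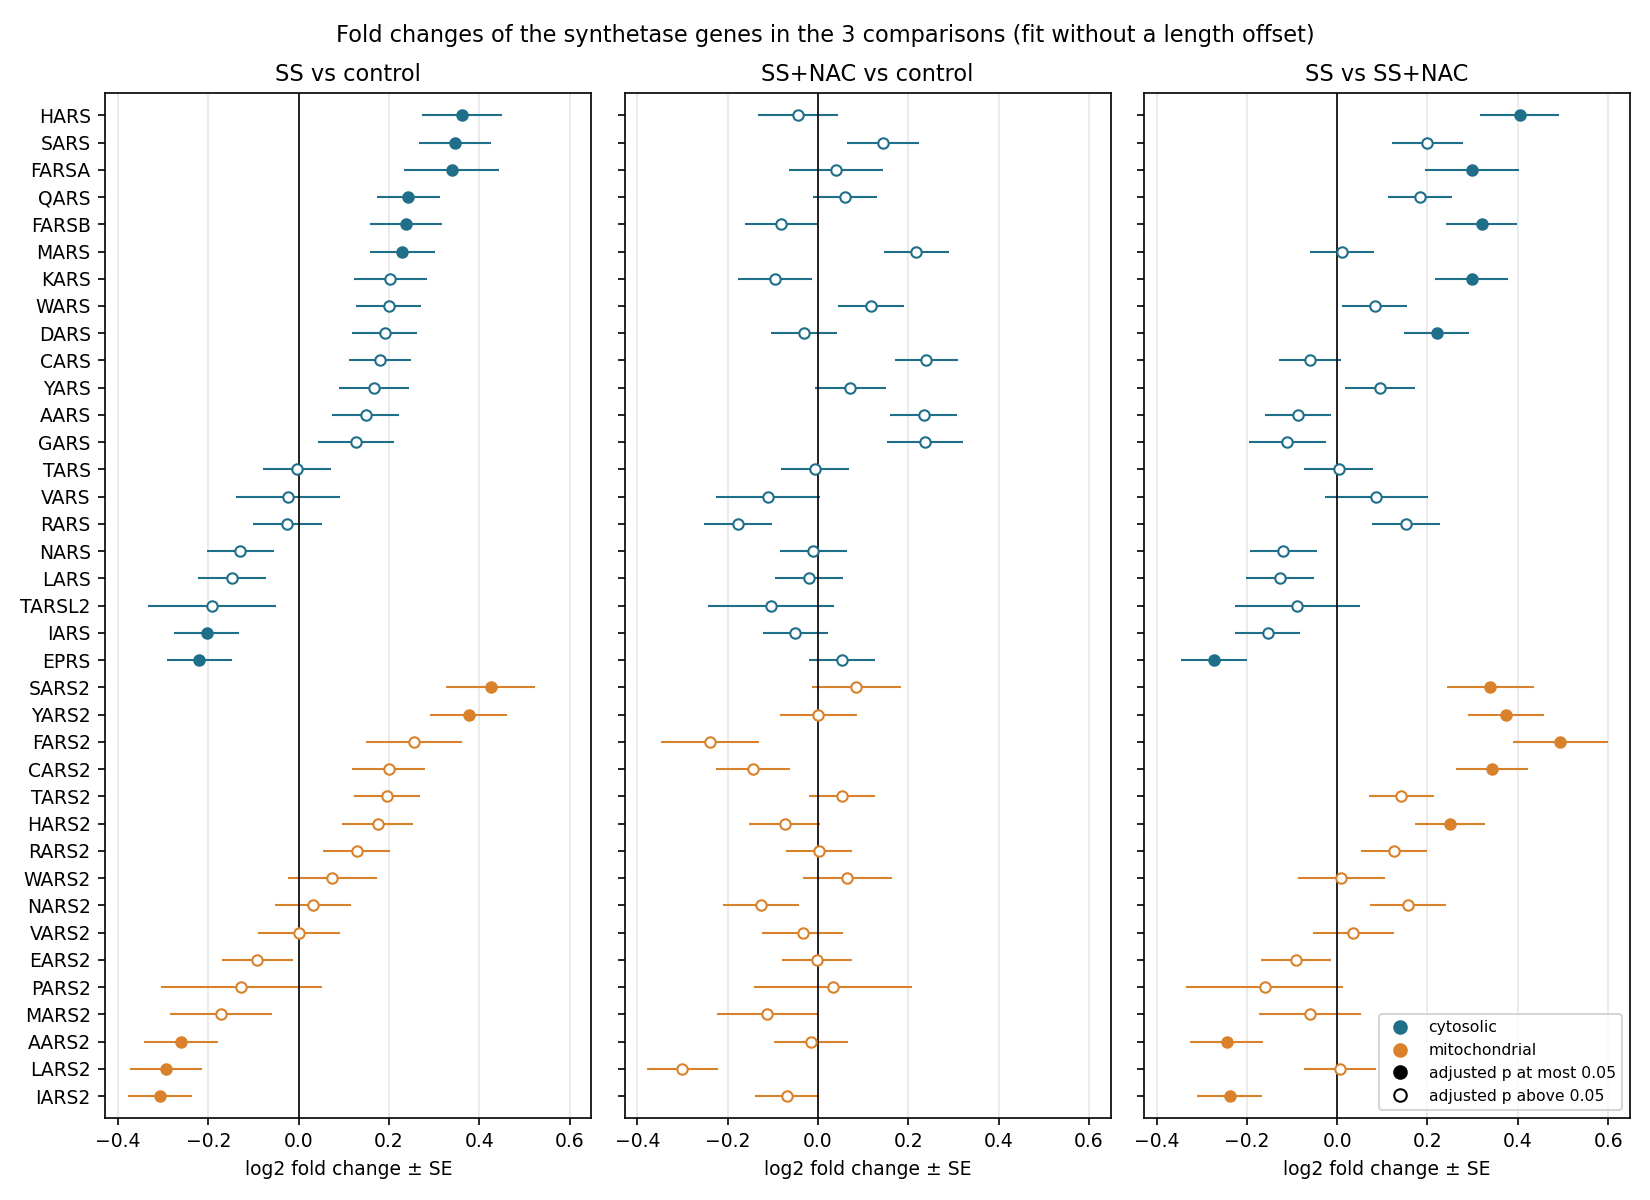
Log2 fold change of each synthetase gene in SS over control, SS+NAC over control and SS over SS+NAC, with bars for the standard error, sorted by the first comparison within the cytosolic and the mitochondrial class, and filled points for an adjusted p of at most 0.05. In SS over control 13 points are filled, in SS+NAC over control 0, and in SS over SS+NAC 13.

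The direction of these calls went with transcript length. The effective length of the members ran from 1853 to 4817 bases, with medians of 2627 for the cytosolic, 2527 for the mitochondrial and 3048 for all tested genes. Of the 11 members under 2300 bases, 6 rose and 0 fell in SS against control (median 0.26), of the 17 between 2300 and 3500 bases 2 rose and 0 fell (median 0.15), and of the 9 over 3500 bases 0 rose and 5 fell (median -0.20). The bounds of these classes were chosen after the values were seen. Spearman's rho between length and log2 fold change was -0.76 over the 37 members and -0.68 over all 14005 tested genes, which share their libraries and are not independent. When each library's trend with length was entered as an offset, rho over the members was -0.08 and 0 members passed. At an unadjusted p under 0.05 there were 11 of the 37 members, beside 3543 of the 14005 tested genes. The lowest adjusted p was then 0.0509, for DARS, and 4.24% of all tested genes rose and 4.93% fell. DESeq2's Wald test was run without the offset only.

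With the offset, the median was 0.12 for the cytosolic and 0.02 for the mitochondrial genes. HARS (0.24 ± 0.08, adjusted p = 0.0904), YARS2 (0.25 ± 0.08, adjusted p = 0.0804) and SARS2 (0.26 ± 0.09, adjusted p = 0.110) had, with DARS (0.25 ± 0.07), the highest values, followed by AARS with 0.23 ± 0.07 (adjusted p = 0.0629) and MARS, which hardly moved, with 0.21 ± 0.06 (adjusted p = 0.0788). The log2 fold change of IARS turned to 0.05, and those of AARS2 and EPRS were -0.002 and -0.02. The other called members shrank, FARSA to 0.12, SARS to 0.15, FARSB to 0.06, QARS to 0.17, IARS2 to -0.19 and LARS2 to -0.09. On the TPM scale, which divides by length and sums to the same total in every library, the median ratio of SS over control moved to -0.26 (log2) over all tested genes and was -0.15 over the members, -0.10 for the cytosolic and -0.20 for the mitochondrial genes. Dividing a gene by its length does not remove a trend of fold changes with length, so TPM is no second correction of that trend. On that scale 5 members had a higher mean in SS than in control (FARSA, HARS, SARS, SARS2 and YARS2) and 32 a lower one. The sign of a small change thus depended on the scale. These 5 also had the largest fold changes in counts. TPM is derived from the same counts, so their place among the 8 that rose is no separate evidence. Counted by single libraries, the SS values exceeded every control value in 3 members and in 14.3% of all tested genes. They were under every control value in 26 members and in 59.5% of all tested genes. What set the length trend was not tested.

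Leaving out a control or SS library leaves 1 in its group, which is then assumed to vary like the libraries of the other groups. The share of all tested genes called in each of these fits is not given here. The member counts from these fits therefore do not set the members apart from genes at large. Without SS replicate 2, 0 members rose and 1 fell (LARS2). Without control replicate 1 the counts were 1 and 1, without control replicate 2 they were 5 and 0, and without SS replicate 1 they were 7 and 1. Without either SS+NAC library, which enters this comparison only through the filter, the scaling and the shared spread, 15 rose and 5 fell. No called member kept its call in all 6 of these fits, and none changed sign.

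**Figure D3:**
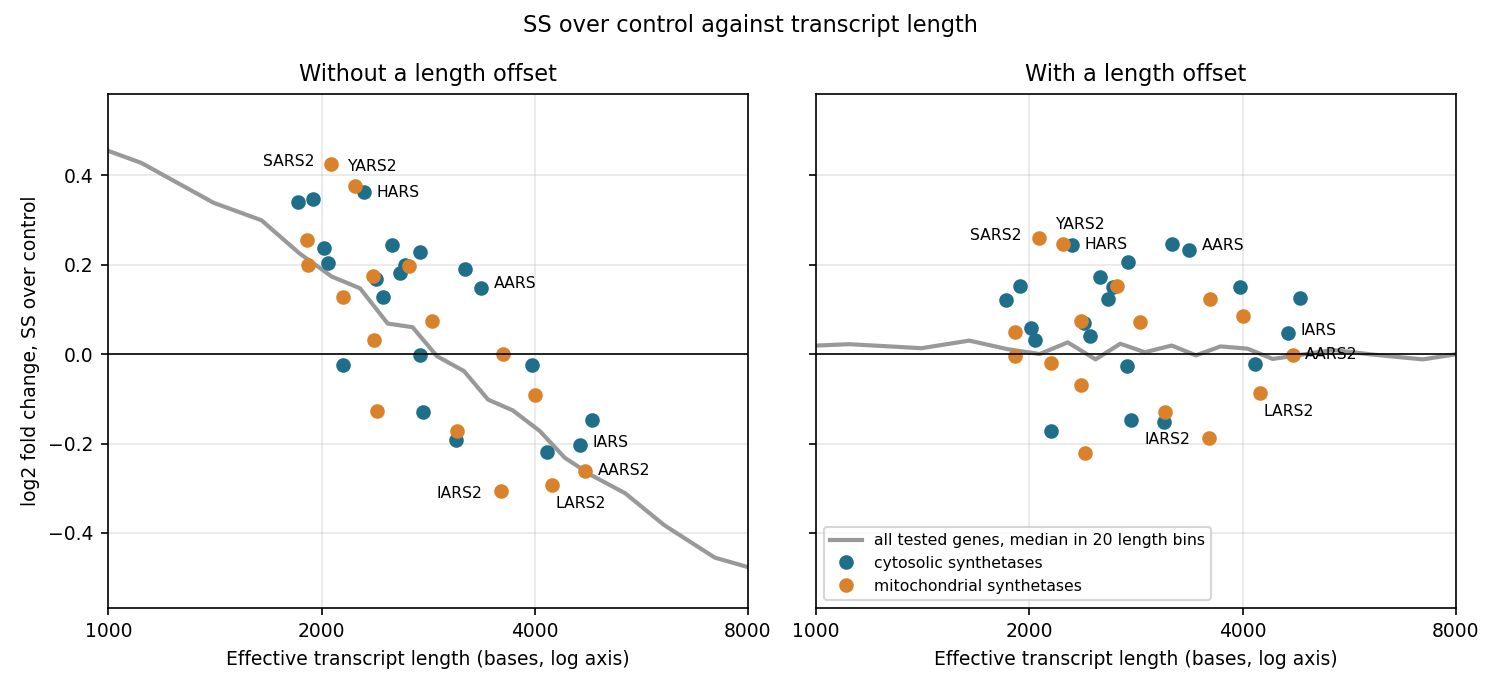
Log2 fold change of SS over control against effective transcript length (bases, log axis) for the 37 synthetases, without (left) and with (right) a length offset, with a grey line for the median of all tested genes in 20 length bins. On the left the synthetases fall with length along the grey line (rho -0.76), and on the right they scatter around 0 (rho -0.08).

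SS was next compared with SS+NAC, which asks which SS values differed when the antioxidant was present. This comparison shares the SS libraries with the one above, so the same SS values enter both. Against SS+NAC, 10 members were higher in SS and 3 lower (19.6% and 23.1% of all tested genes), with 5 and 1 among the cytosolic and 5 and 2 among the mitochondrial genes, and 8 members passed in both comparisons. The median was 0.08 in each class, beside -0.03 over all tested genes.

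The cytosolic enzymes that were higher in SS were HARS (0.40 ± 0.09, adjusted p = 0.00449), FARSB (0.32 ± 0.08, adjusted p = 0.00835), FARSA (0.30 ± 0.10, adjusted p = 0.0399), KARS and DARS, and EPRS was lower (-0.27 ± 0.07, adjusted p = 0.0118). KARS, the lysine enzyme of the complex, had 289.7 and 316.6 CPM in SS, 258.2 and 234.8 in SS+NAC, and 259.7 and 266.7 in control (0.30 ± 0.08, adjusted p = 0.0133). DARS, the aspartate enzyme of the complex, had 105.8 and 110.9 CPM in SS, 90.4 and 95.7 in SS+NAC, and 96.6 and 93.4 in control (0.22 ± 0.07, adjusted p = 0.0316). For KARS and DARS the SS libraries were the highest of the 6, although neither passed against control. None of these 5 higher genes is among the 12 ATF4 targets, of which 0 were higher and EPRS was lower, whereas 19.6% of all tested genes were higher. DESeq2's Wald test also called SARS, an ATF4 target, higher (0.23, adjusted p = 0.0308). Length differed as well: FARSA, FARSB, KARS and HARS have 1853 to 2298 bases, DARS has 3183 and EPRS 4166. With the length offset, 2 of the 9 cytosolic genes that are not ATF4 targets were higher. Of the 12 targets 0 were, beside 7.05% of all tested genes. EPRS then stood at -0.08 (adjusted p = 0.457 in edgeR's test). The split between targets and other genes was not tested.

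Among the mitochondrial enzymes FARS2 (phenylalanine) differed most, with 28.0 and 34.2 CPM in SS, 23.0 and 21.1 in SS+NAC, and 25.4 and 26.6 in control (0.49 ± 0.11, adjusted p = 0.00398). Its SS values lay above control and its SS+NAC values below control, with no overlap. CARS2 had 86.6 and 94.3 CPM in SS, 75.1 and 67.4 in SS+NAC, and 78.4 and 79.1 in control, the same order (0.34 ± 0.08, adjusted p = 0.00640). With the length offset, SS over control stood at 0.05 for FARS2 and -0.004 for CARS2. SS over SS+NAC then stood at 0.31 for FARS2 (adjusted p = 0.0554) and 0.16 for CARS2 (adjusted p = 0.161), so neither call held. HARS2 had 40.5 and 37.5 CPM in SS, 32.5 and 33.2 in SS+NAC, and 34.9 and 34.2 in control (0.25 ± 0.08, adjusted p = 0.0244). HARS and HARS2 lie head to head on opposite strands, 11.7% of the exonic bases of HARS2 overlap HARS, and no use of strand in the counting is stated, so reads from this overlap may be counted for either gene.

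YARS2 (0.37 ± 0.08, adjusted p = 0.00514) and SARS2 (0.34 ± 0.10, adjusted p = 0.0161) were also higher in SS than in SS+NAC, and AARS2 (-0.25 ± 0.08, adjusted p = 0.0330) and IARS2 (-0.24 ± 0.07, adjusted p = 0.0209) were lower. LARS2 stood at 0.01 ± 0.08 (adjusted p = 0.952) and, with the length offset, at 0.21 ± 0.08 (adjusted p = 0.111). EARS2, a mitochondrial counterpart of EPRS, had 34.8 and 34.4 CPM in SS and 37.9 and 35.8 in SS+NAC (-0.09 ± 0.08, adjusted p = 0.379), and PARS2, the other one, had 7.28 and 4.98 CPM in SS and 6.71 and 7.02 in SS+NAC. The SS libraries of PARS2 lay on both sides of its SS+NAC libraries.

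Length again ordered the calls, with 8 higher and 0 lower among the 11 members under 2300 bases and 0 higher and 3 lower among the 9 over 3500 bases (rho -0.78 over the members and -0.64 over all tested genes). With the length offset, 3 members remained higher in SS and 0 were lower, where 7.05% and 7.34% of all tested genes passed. These were DARS (0.28 ± 0.07, adjusted p = 0.0220), HARS (0.31 ± 0.08, adjusted p = 0.0316) and YARS2 (0.26 ± 0.08, adjusted p = 0.0476), and AARS2 turned to 0.01. Without SS replicate 2 and without the offset, 1 member was higher (HARS2) and 1 lower (EPRS). Without SS replicate 1, control replicate 1 or control replicate 2 the number of lower members fell to 1, 1 and 0, and without SS+NAC replicate 1 it was 2. With the offset and without SS replicate 2, DARS, HARS and YARS2 had adjusted p-values of 0.194, 0.253 and 0.329.

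Against control, 0 members passed in SS+NAC in either direction (1.36% of all tested genes rose and 0.657% fell), also with DESeq2's Wald test and with the length offset (1.35% and 0.657%). At an unadjusted p under 0.05 there were 7 members, beside 16.1% of all tested genes. The class medians were -0.01 for the cytosolic and -0.03 for the mitochondrial genes, and rho between length and fold change was -0.01 over the members.

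The largest positive fold changes over control in SS+NAC were those of CARS, GARS, AARS and MARS, which are 4 of the 7 known ATF4 targets with the motif. CARS, the cysteine enzyme, had 118.9 and 120.6 CPM in control and 142.8 and 140.1 in SS+NAC, with 133.8 and 137.5 in SS (0.24 ± 0.07 in SS+NAC over control, adjusted p = 0.122). AARS had 201.7 and 199.8 CPM in SS+NAC (0.23 ± 0.07, adjusted p = 0.155), and MARS stood at 0.22 ± 0.07 (adjusted p = 0.171). GARS, the glycine enzyme, picked out after its values were seen, had 247.6 and 253.2 CPM in control, 258.8 and 288.3 in SS, and 310.5 and 279.9 in SS+NAC (0.24 ± 0.08, adjusted p = 0.202). In these 4 genes both SS+NAC libraries lay above both control libraries, but none passed the test. The other 4 genes with the motif stood near 0 in SS+NAC over control, IARS at -0.05, NARS at -0.01, TARS at -0.006 and YARS2 at 0.001. The lowest fold change was that of LARS2, -0.30 ± 0.08 (adjusted p = 0.0964), which passed without SS+NAC replicate 1.

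The 12 ATF4-target synthetases were read against 12 other genes of the ATF4 axis, from ATF4 itself to its targets in amino acid supply and stress. In SS+NAC over control 10 of the 12 axis genes rose and 0 fell, with a median of 0.79, whereas the target synthetases had a median of 0.09, 8 of 12 above 0 and 0 passing. Of all 14005 tested genes, 1.36% rose and 0.657% fell in this comparison, and 6913 had a fold change above 0. SLC7A11, the cystine importer, had 32.8 and 36.0 CPM in control, 22.8 and 23.2 in SS, and 133.3 and 168.2 in SS+NAC (2.13 ± 0.11, adjusted p = 2.36e-06). CHAC1, which degrades glutathione, had 8.28 and 8.19 CPM in control, 12.8 and 13.2 in SS, and 28.4 and 28.8 in SS+NAC (1.80 ± 0.10 in SS+NAC over control). SESN2, a stress-induced inhibitor of mTORC1, had 27.5 and 30.6 CPM in control, 30.9 and 31.2 in SS, and 91.3 and 85.2 in SS+NAC (1.60 ± 0.08), and DDIT4, another such inhibitor, stood at 2.38 ± 0.17. For SLC7A11, CHAC1 and SESN2 the SS+NAC libraries were far above all others.

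ASNS, the asparagine synthetase that is not a tRNA enzyme, had 76.5 and 81.8 CPM in control, 108.3 and 107.7 in SS, and 119.2 and 128.9 in SS+NAC, and rose in both (0.45 ± 0.08 in SS and 0.65 ± 0.08 in SS+NAC). In SS over control 8 axis genes rose and 1 fell, SLC7A11 (-0.58 ± 0.12), with a median of 0.43, beside 2 rising (SARS and MARS) and 2 falling (EPRS and IARS) among the target synthetases, whose median was 0.14. With the length offset 3 axis genes still rose in SS, DDIT3, DDIT4 and CHAC1, SLC7A11 no longer passed (-0.05, adjusted p = 0.836), and the median was 0.23, while 10 rose in SS+NAC. Of all tested genes, 4.24% rose and 4.93% fell with the offset in SS over control, and 1.35% and 0.657% in SS+NAC over control. Of the 9 cytosolic enzymes that are not known ATF4 targets, 4 rose and 0 fell in SS over control (median 0.20), beside 18.6% and 21.4% of all tested genes, and 0 passed in SS+NAC (median -0.08). In SS over control 2 of these 9 were called with the replicate block and 0 with the length offset. No test was made of the difference between these lists.

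**Figure D4:**
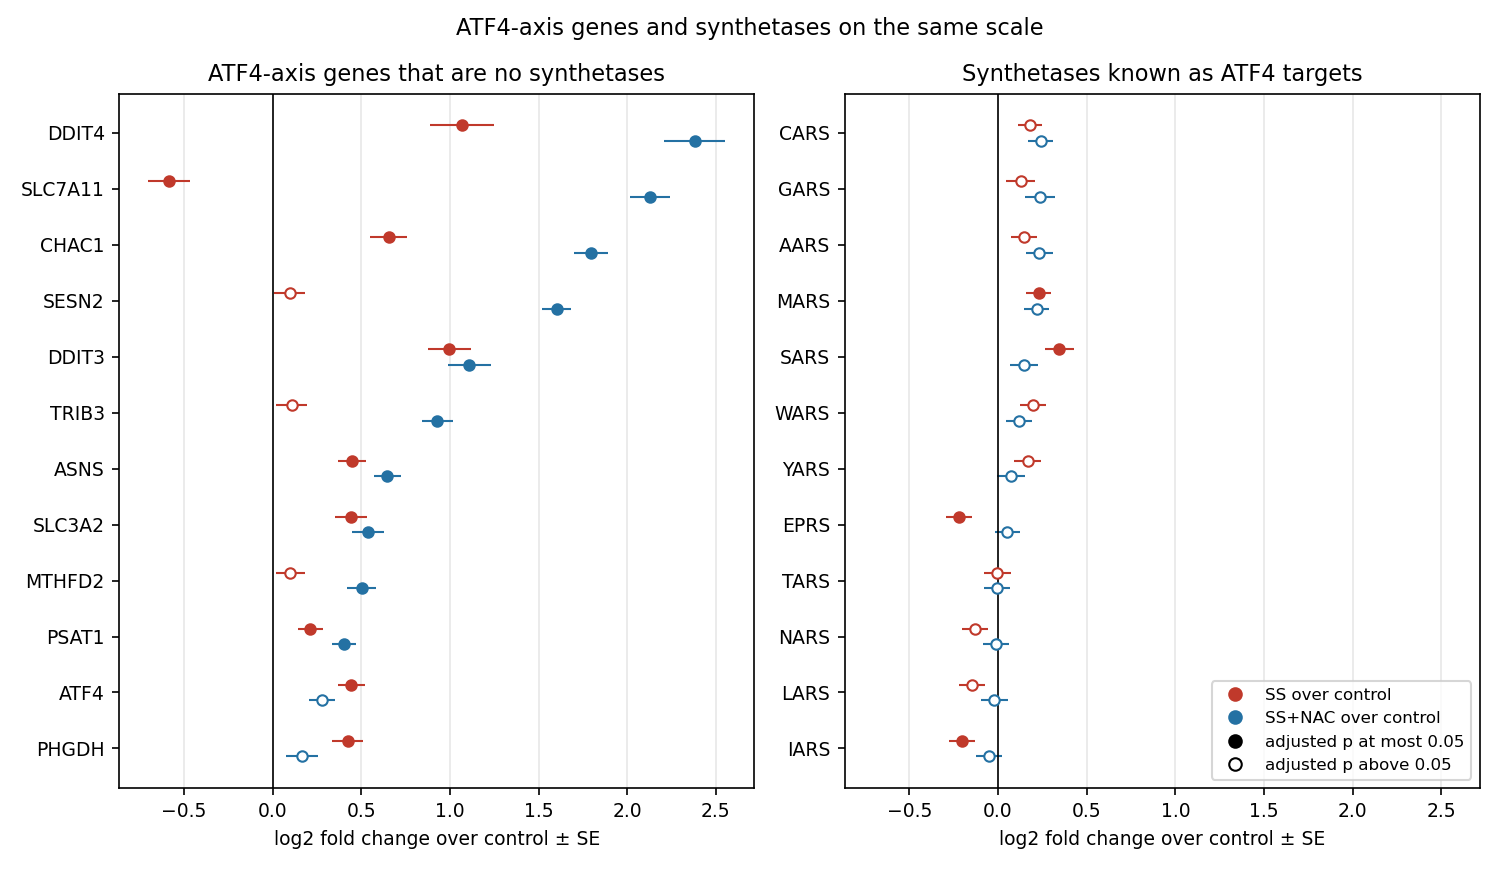
Log2 fold changes over control in SS (red) and SS+NAC (blue), with bars for the standard error, for 12 ATF4-axis genes that are no synthetases (left) and 12 synthetases known as ATF4 targets (right), on the same horizontal scale, with filled points for an adjusted p of at most 0.05. The axis genes reach 2.38 in SS+NAC, whereas the synthetases stay between -0.22 and 0.35 in both comparisons.

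The genes that work beside the synthetases gave the following counts in SS over control, where 18.6% of all tested genes rose and 21.4% fell (4.24% and 4.93% with the length offset). Of the 3 scaffold genes of the multisynthetase complex 2 rose, AIMP2 (0.35 ± 0.08, adjusted p = 0.00446) and EEF1E1 (0.27 ± 0.09, adjusted p = 0.0325), while AIMP1 stood at -0.04. AIMP2 had 46.2 and 48.4 CPM in control, 58.8 and 62.2 in SS, and 48.1 and 45.9 in SS+NAC, so only its SS libraries stood apart. Neither passed with the length offset, where they stood at -0.03 and -0.17, and 1 of the 3 scaffold genes passed in DESeq2's Wald test and with the replicate block. Of the 4 genes that modify charged mitochondrial tRNAs (GATB, GATC, QRSL1 and MTFMT) 0 passed, with a median of 0.17.

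Of the 7 genes of tRNA export, delivery and sensing, the elongation factor 1 subunits EEF1B2 (0.40 ± 0.08), EEF1D (0.41 ± 0.10) and EEF1G (0.25 ± 0.08) rose, and the tRNA exporter XPOT (-0.35 ± 0.08) and EIF2AK4 (-0.51 ± 0.07), the kinase GCN2 that senses uncharged tRNA, fell. Of these, EIF2AK4 was also lower in SS+NAC than in control (-0.34 ± 0.07, adjusted p = 0.0482), a fold change that hardly moved with the length offset (-0.33, adjusted p = 0.0639). The call was also lost with the replicate block and held in DESeq2's Wald test. With the length offset XPOT turned to 0.05, EEF1B2 to -0.07 and EEF1G to -0.04 in SS over control, and EIF2AK4 shrank to -0.17. In that fit only EEF1A1, the factor that carries charged tRNA to the ribosome, passed in SS over control (0.26 ± 0.06, adjusted p = 0.0240). All 6 mitochondrial translation factors passed in SS over control in edgeR's fit, but only 2, both higher, in DESeq2's Wald test and 2, both higher, with the replicate block. TSFM (0.54 ± 0.08), TUFM (0.39 ± 0.09) and MTIF3 (0.27 ± 0.10) rose, and GFM1 (-0.23 ± 0.07), GFM2 (-0.23 ± 0.08) and MTIF2 (-0.28 ± 0.09) fell. With the offset TSFM, the exchange factor of the mitochondrial elongation factor TUFM, alone of the 6 passed (0.32 ± 0.08, adjusted p = 0.0309), while MTIF2 did not shrink (-0.31, adjusted p = 0.0677) and MTIF3 turned to -0.14.

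The members that passed against SS+NAC with the offset lie, in GENCODE release 29 (GRCh38), at chr5:140673904-140691862 (HARS), chr12:32727490-32755902 (YARS2) and chr2:135906677-135986100 (DARS), all on the minus strand. Besides SARS2 and the HARS pair, VARS2 shares 22.0% of its exonic bases with GTF2H4 on the same strand, and no other member shares more than 7.6% with another annotated gene.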

How the data were processed

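Poly(A) RNA of KHM-5M cells was sequenced in single-end reads of 50 bases. According to the submitters' processing notes, HISAT2 2.0.4, Bowtie2 2.2.5 and RSEM 1.2.12 were used. The deposited table holds, per library, expected counts made by the authors with RSEM, of which 43.79% are not whole. The FPKM values in the deposited table were computed by the authors with RSEM, and here served only to derive the effective length from the counts. Deposited TPM values, likewise from the authors' RSEM run, were used to compare genes. The authors' 9 columns of group comparisons (log2 fold changes, p-values and q-values by DESeq2) and 9 columns of group means were not used.

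Counts were rounded, filtered with filterByExpr and scaled by TMM in edgeR 4.0.16 (R 4.3.3). The 6 libraries were fitted together with the quasi-likelihood test, whose biological coefficient of variation was 6.74%, with Benjamini-Hochberg adjustment over 14005 genes. A gene was called at an adjusted p no higher than 0.05. The length offset was a lowess fit (span 0.3), per library, of the deviation of log2 CPM from its mean over libraries on log length. The fit was tested on simulated data. Members with the 6 largest called changes per class and comparison, those called with and without the offset, and their counterparts among the members were described in full. The members, lists and tests were chosen with earlier results of these data known. Alternatives were DESeq2 1.42.0, other filters, the compared libraries only, replicate blocks, Bonferroni adjustment, other class assignments, deposited TPM values and leaving out each library. Promoter sequences came from RefSeq. Figures were drawn with matplotlib 3.10.9, tables with pandas 2.3.3.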

Additional observations from a re-analysis of the deposited data

How the results depend on the processing

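The counts of called members depended on the setting. For SS over control, where 8 members rose and 5 fell, they were 0 and 0 with the Bonferroni adjustment, the length offset, or the length offset with the replicate block, 15 and 3 with at least 10 counts in every library, and 5 and 2 with the replicate block. With only the 4 libraries compared 15 rose, and with a crossed replicate block, chosen after seeing the data, 18 rose. Leaving out single libraries gave 0 to 15 rising and 0 to 5 falling. For SS over SS+NAC, where 10 were higher and 3 lower, the counts were 0 and 0 with Bonferroni, 3 and 0 with the length offset, and 0 and 0 with the offset and the replicate block. The lower members numbered 1 with the replicate block and 1 with only the 4 libraries compared. Leaving out single libraries gave 1 to 10 higher and 0 to 3 lower. For SS+NAC over control, where 0 passed in either direction, the crossed replicate block gave 4 higher (AARS, CARS, GARS and MARS) and 1 lower (LARS2), and leaving out single libraries gave 0 to 0 higher and 0 to 1 lower. The cause of these differences was not tested. Counts over all 14005 tested genes moved as well. In SS over control 2605 rose and 3004 fell in edgeR's fit, 2194 and 2663 with the replicate block, and 13 and 207 with Bonferroni. For the other filters, the compared libraries only, the crossed block and the fits without single libraries, such counts are not given here. Member counts under those settings do not set the members apart from genes at large. With the length offset, with or without the replicate block, IARS in SS over control turned to 0.048 in both, and AARS2 in SS over SS+NAC to 0.006 and 0.007.

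The difference of the class medians was 0.115 in SS over control (0.044 to 0.183 when single libraries were left out), 0.019 in SS+NAC over control (-0.013 to 0.09), and 0.002 in SS over SS+NAC (-0.074 to 0.009). The spread between replicates was taken from another measure, the class difference of median deviations in each library, with -0.087 and -0.051 in control, -0.042 and 0.04 in SS, and 0.003 and 0.062 in SS+NAC (pooled SD 0.0437). By that measure SS+NAC stood farther from control than SS did, unlike the differences of median fold changes. In SS over SS+NAC the difference of the class medians was -0.077 with the length offset, -0.077 with the offset and the replicate block, and 0.049 with TARSL2 counted as mitochondrial. Ratios of TPM, chosen after seeing the data, gave 0.099, 0.033 and 0.027.

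Of the 26 calls in the SS comparisons, 24 held in DESeq2's Wald test, 15 under the replicate block and 3 without SS replicate 2. Libraries with equal replicate numbers showed no common pairing. Their deviations from the group means correlated at 0.13 between control and SS, -0.197 between control and SS+NAC and -0.263 between SS and SS+NAC. These values cannot decide on a pairing under other numbers. With the crossed replicate block, chosen after seeing the data, 26 of the 26 calls held. Each group held 2 libraries, and the counts of PARS2 and TARSL2, the lowest, limit these genes most.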
